A study of Homo sapiens with 30 samples.

Results

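Soshiho-tang, a decoction of East Asian medicine built around Bupleurum and Scutellaria roots and known elsewhere as Xiao Chai Hu Tang or Sho-saiko-to, was compared with itself at 2 concentrations. The comparison used 6 of the 30 RNA sequencing libraries of the series, 3 from cells kept with the ethanol extract at 500 µg/mL and 3 from cells kept with it at 20 µg/mL, chosen by the treatment in their labels. All cells were SW1783, an established human astrocytoma line grown in Leibovitz's L-15 medium with fetal bovine serum, and all were taken after 24 h. Per the series text, an extract that inhibited growth strongly below 500 µg/mL was used at lower concentrations, and samples with too little RNA were left out. Both groups received extract, so the lower concentration and not the vehicle is the reference. Library names place the 6 libraries in one set with 3 libraries of the same extract at 100 µg/mL and 9 libraries of Yijin-tang, another decoction of the study. The names of the 3 libraries of DMSO vehicle carry another prefix, although their titles name the same batch as those of both extracts, so their levels are given only as a description. The labels and the series text give different DMSO concentrations for them.

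Total estimated counts of the 6 libraries ran from 26 M to 32.9 M (M, mega). Levels are given in CPM (a gene's counts per M counts of the library, after TMM scaling) for single libraries, in the order of replicates 1 to 3, or as the mean ± SD of 3 libraries, and coordinates are those of GRCh38. Whether replicates were separate cultures is not in the labels. The p-values measure the spread between replicate libraries and nothing wider, and that spread may be technical. It was estimated over all 21 libraries fitted together, those of vehicle, Soshiho-tang and Yijin-tang, and not over the 6 compared alone. Replicate 3 of the 20 µg/mL group stood apart. It had 9.03% of its counts in mitochondrially encoded genes, against 6.8% and 6.37% in the other 20 µg/mL libraries and 6.94% to 7.79% at 500 µg/mL, and it differed from its replicates with a chi-square per degree of freedom of 14.3 and 25.7, where they differed from each other with 5.62. In bulk RNA, fewer cells of a type and less RNA per cell cannot be told apart. Of 16 astrocyte and glioma markers 9 were too low to test. Among these were the glial filament gene GFAP (at most 0.204 CPM in any library of the fit) and S100B (at most 0.251 CPM). Other markers were expressed, and the summed level of the 16 was 8739 CPM at 20 µg/mL and 7497 CPM at 500 µg/mL (means of 3 libraries). Of the 7 markers tested 1 rose (2 without replicate 3 of the 20 µg/mL group) and 5 fell, among them SLC1A3, the glutamate transporter of astrocytes, from 27.2 ± 2.33 to 18.9 ± 1.27 CPM (log2 fold change -0.53 ± 0.07, adjusted p = 2.20e-06).

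Cells short of amino acids, under oxidative stress or with disturbed lysosomes answer through a few transcription factors, each with known target genes. ATF4 acts in the integrated stress response and raises genes of amino acid supply, NRF2 raises genes of antioxidant defence and iron storage, and TFEB with its relatives raises lysosome genes. YAP, SRF and TGF-beta signalling maintain genes of matrix and contractility, and SREBP2 maintains genes of cholesterol synthesis. These programmes order the account below.

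Between 500 and 20 µg/mL, 4868 of 16872 genes tested changed (28.9%; edgeR's quasi-likelihood test, Benjamini-Hochberg adjusted p under 0.05), of which 2464 were higher (14.6%) and 2404 lower (14.2%) at 500 µg/mL. Without replicate 3 of the 20 µg/mL group the test called 4286 genes, and 3928 of them were among the 4868. Most changes were small: 3338 of the changed genes had a log2 fold change under 0.5 in size, and 433 (2.57% of those tested) changed at least 2-fold, 209 upward (1.24%) and 224 downward (1.33%). In 7318 genes (43.4%) the libraries of the 2 groups did not overlap. The balance of directions varied with the level of the gene. Of 7705 genes with 10 to 100 CPM in the higher group 1574 rose and 1118 fell, whereas of 2232 genes with 100 to 1000 CPM 298 rose and 614 fell, and of 79 genes above 1000 CPM 4 rose and 37 fell. The CPM of genes that fell summed to between 29.56% and 29.87% of 1 M in the 20 µg/mL libraries and between 23.26% and 24.04% in the 500 µg/mL libraries. For genes that rose the sums were 10.04% to 10.05% at 20 µg/mL and 13.1% to 13.37% at 500 µg/mL. Both sets were called in these libraries, so the directions of these shifts follow from the choice. Protein-coding genes changed in 33% of 13489 tested, long noncoding RNAs in 14.2% of 2176 and pseudogenes in 8.39% of 870. In the plot of change against level, the downward shift of the most abundant transcripts appears as the blue edge on the right.

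**Figure D1:**
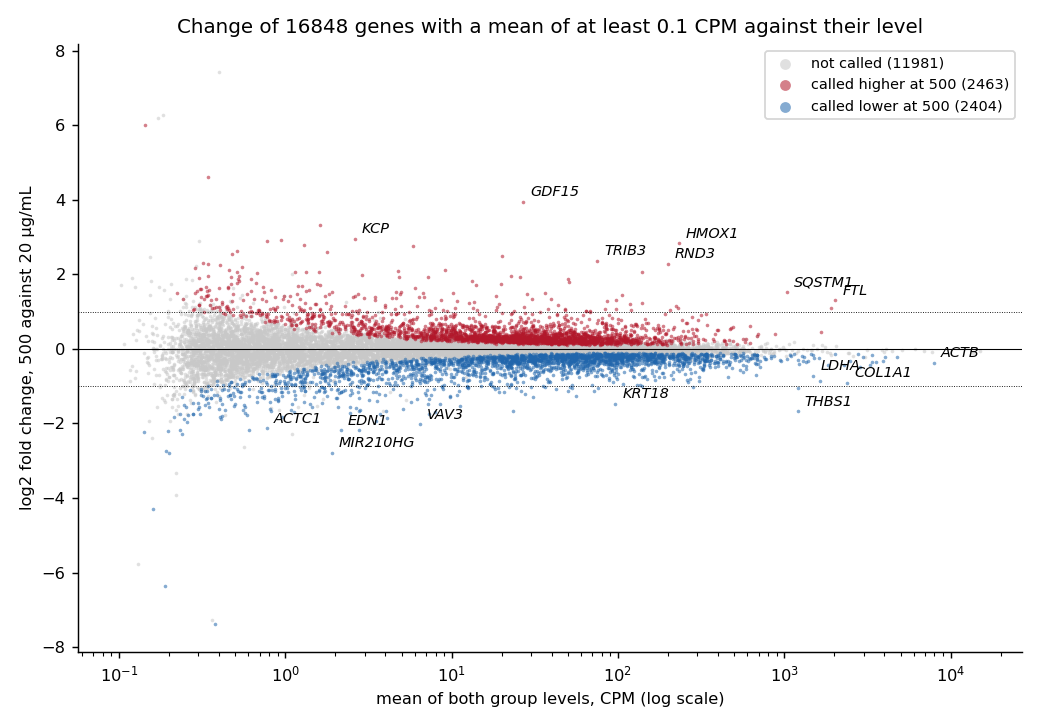
Log2 fold change of 500 against 20 µg/mL (vertical axis) against the mean of both group levels in CPM (horizontal axis, log scale) for 16848 genes with a mean of at least 0.1 CPM. Each point is a gene, red points were called higher (2463), blue points lower (2404) and grey points were not called, and dotted lines mark 2-fold changes.

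Stress genes were among the largest rises. GDF15 (19:18374731-18389176), a secreted stress cytokine of the TGF-beta family, stood at 51.3, 56.5 and 44.3 CPM at 500 µg/mL and 3.33, 2.92 and 3.63 CPM at 20 µg/mL. It was the gene with the largest fold change among those named by the rule (log2 fold change 3.95 ± 0.12, adjusted p = 9.09e-16), and the 2 groups were far apart. HMOX1 (22:35380361-35394214), the gene of heme oxygenase 1, which breaks heme down, stood at 398, 434 and 386 CPM at 500 µg/mL and 59, 56.4 and 56.4 CPM at 20 µg/mL (log2 fold change 2.83 ± 0.06, adjusted p = 3.46e-19). TRIB3 (20:362835-397559), a pseudokinase induced by ATF4 and DDIT3, stood at 126, 136 and 114 CPM at 500 µg/mL and 26.7, 24.4 and 21.8 CPM at 20 µg/mL (log2 fold change 2.36 ± 0.08, adjusted p = 2.00e-15). None of the 500 µg/mL libraries overlapped the 20 µg/mL libraries in these genes, which the rule for naming them required. RND3 (2:150468195-150539011), an atypical small GTPase that opposes actin contractility, stood at 319, 353 and 320.2 CPM at 500 µg/mL and 69.2, 68.2 and 66.9 CPM at 20 µg/mL (log2 fold change 2.28 ± 0.05, adjusted p = 3.21e-19). PLIN2 (9:19108375-19149290), the coat protein of lipid droplets, stood at 232, 237 and 209 CPM at 500 µg/mL and 55.1, 53.7 and 52.2 CPM at 20 µg/mL (log2 fold change 2.07 ± 0.06, adjusted p = 1.33e-16). THBD, which encodes thrombomodulin, the endothelial receptor of thrombin, rose from 6.01 ± 0.392 to 34 ± 0.225 CPM (2.50 ± 0.09 on the log2 scale with its SE, as in the later values in parentheses). The hexokinase-like gene HKDC1 rose from 1.82 ± 0.134 to 7.69 ± 0.759 CPM and ADM2, a peptide of the calcitonin family, rose from 3.37 ± 0.427 to 14.8 ± 1.68 CPM.

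Several of the largest fold changes rested on low levels. The BMP-binding protein gene KCP rose from 0.599 ± 0.302 to 4.63 ± 1.02 CPM (2.95 ± 0.28), the hair keratin gene KRT75 from 0.215 ± 0.0271 to 1.66 ± 0.105 CPM (2.91 ± 0.29) and the tetraspanin-like gene TM4SF19 from 1.48 ± 0.163 to 10.2 ± 0.427 CPM (2.77 ± 0.14). ATP6V0D2, a subunit of the vacuolar proton pump, rose from 0.324 ± 0.246 to 2.25 ± 0.21 CPM (2.79 ± 0.32). Of PSG7, a pregnancy-specific glycoprotein gene (2.89 ± 0.33), and RPLP0P2, a pseudogene of a ribosomal protein (2.59 ± 0.22), reads may be shared with near-identical copies. PHLDA1-AS1 (12:76030494-76031378) lies within PHLDA1 on the opposite strand, and since the strand setting of the counting was not given, its reads cannot be told apart from those of PHLDA1 with certainty. It stood at 3.85, 2.13 and 2.76 CPM at 500 µg/mL and 0.591, 0 and 0.334 CPM at 20 µg/mL (log2 fold change 3.31 ± 1.05, adjusted p = 0.0227). Its call was lost without replicate 1 of the 500 µg/mL group (adjusted p = 0.0687) and without replicate 2 or 3 of the 20 µg/mL group (0.0945 and 0.0557), and DESeq2 did not call it (0.227). PHLDA1 itself rose from 234 ± 7.23 to 444 ± 19.5 CPM (0.92 ± 0.05).

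The strongest falls were in genes of low or middle level. MIR210HG, the host transcript of the hypoxia-induced miR-210, stood at 0.388, 0.541 and 0.515 CPM at 500 µg/mL and 3.36, 3.73 and 2.85 CPM at 20 µg/mL (log2 fold change -2.79 ± 0.18, adjusted p = 9.15e-11). EDN1 (6:12290363-12297194), which encodes the vasoconstrictor endothelin 1, stood at 0.646, 0.811 and 0.882 CPM at 500 µg/mL and 3.73, 3.52 and 3.34 CPM at 20 µg/mL (log2 fold change -2.18 ± 0.17, adjusted p = 2.69e-09). VAV3, a guanine nucleotide exchange factor, stood at 2.97, 2.4 and 2.24 CPM at 500 µg/mL and 10.6, 9.71 and 10.8 CPM at 20 µg/mL (log2 fold change -2.02 ± 0.10, adjusted p = 2.53e-12). In each of these genes the 500 µg/mL libraries were all below the 20 µg/mL libraries, again a condition of the rule. EGLN3, an oxygen-sensing prolyl hydroxylase, fell from 5.58 ± 0.417 to 1.45 ± 0.292 CPM (-1.94 ± 0.15), and LGR6, a receptor for R-spondins, fell from 4.54 ± 0.567 to 1 ± 0.309 CPM (-2.19 ± 0.17). ACTC1, the cardiac actin gene, fell from 1.26 ± 0.0999 to 0.282 ± 0.0943 CPM (-2.13 ± 0.26), and the oxysterol receptor gene GPR183 fell from 1 ± 0.223 to 0.214 ± 0.0725 CPM (-2.17 ± 0.31). CCL2, the monocyte chemokine, fell from 12.2 ± 1.92 to 3.75 ± 0.0688 CPM (-1.70 ± 0.14). LYPD1 fell from 35.7 ± 3.82 to 11.1 ± 0.944 CPM (-1.68 ± 0.09) and TCAF2, a partner of TRPM8 channels, from 11.3 ± 0.115 to 3.38 ± 0.273 CPM (-1.74 ± 0.09). The remaining genes of the rule on this side were PADI2, RIPOR2, GABRQ and the noncoding LINC00639 and LINC01910, with log2 fold changes between -1.84 and -1.67. Noncoding genes that changed also included the rising LBX2-AS1 (1.36 ± 0.14), SBF2-AS1 (1.16 ± 0.12), LINC01426 (1.28 ± 0.23) and SPRY4-AS1 (1.78 ± 0.30) and the falling MIAT (-1.25 ± 0.11) and CARMN (-1.33 ± 0.25), with the same limit on antisense genes as for PHLDA1-AS1.

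Among genes above 500 CPM, the rises were led by SQSTM1 (5:179806398-179838078), the autophagy receptor p62, at 1505, 1601 and 1511 CPM at 500 µg/mL and 535, 556 and 509.5 CPM at 20 µg/mL (log2 fold change 1.53 ± 0.05, adjusted p = 5.65e-15). The ferritin chains followed, with FTL from 1168 ± 126 to 2874 ± 244 CPM (1.30 ± 0.08) and FTH1 from 1222 ± 149.7 to 2609 ± 160 CPM (1.09 ± 0.08). Smaller rises were those of the nuclear noncoding RNA NEAT1 (0.61 ± 0.13), the mitochondrial chaperone HSPA9 (0.59 ± 0.05), the isoleucyl-tRNA synthetase IARS1 (0.55 ± 0.04), the annexin ANXA1 (0.53 ± 0.05) and the actin-binding thymosin TMSB4X (0.44 ± 0.09). The falls were led by THBS1 (15:39581079-39599466), the matrix glycoprotein thrombospondin 1, at 577, 523 and 630.1 CPM at 500 µg/mL and 1880, 1938 and 1673 CPM at 20 µg/mL (log2 fold change -1.67 ± 0.07, adjusted p = 9.11e-14), followed by collagens I and V (below) and by the proteoglycan VCAN (-0.75 ± 0.09), lactate dehydrogenase LDHA (-0.72 ± 0.05), caveolin CAV1 (-0.69 ± 0.04) and MAGED1 (-0.61 ± 0.07).

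For most of these genes the level at 100 µg/mL was near that at 20 µg/mL. Of the 433 genes that changed at least 2-fold, the mean at 100 µg/mL was nearer to that at 20 µg/mL in 405 and nearer to that at 500 µg/mL in 28 (on the scale log2 of CPM + 0.1). GDF15 stood at 5.28, 3.47 and 4.1 CPM at 100 µg/mL and 3.13, 3.69 and 3.32 CPM in vehicle, HMOX1 at 72.9, 69.2 and 71.8 CPM at 100 µg/mL and 60.3, 56.6 and 55.6 CPM in vehicle and RND3 at 72.5, 73 and 70.8 CPM at 100 µg/mL and 56.8, 57.4 and 59.9 CPM in vehicle. THBS1 stood at 1601, 1575 and 1575 CPM at 100 µg/mL and 1893, 1948 and 2150 CPM in vehicle. Because the fold changes and these means share the 20 and 500 µg/mL libraries, the counts are a description. The plot of levels by library shows 20 genes. One of them, INSIG1 (below), is an exception, with a level at 100 µg/mL between those at 20 and 500 µg/mL.

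**Figure D2:**
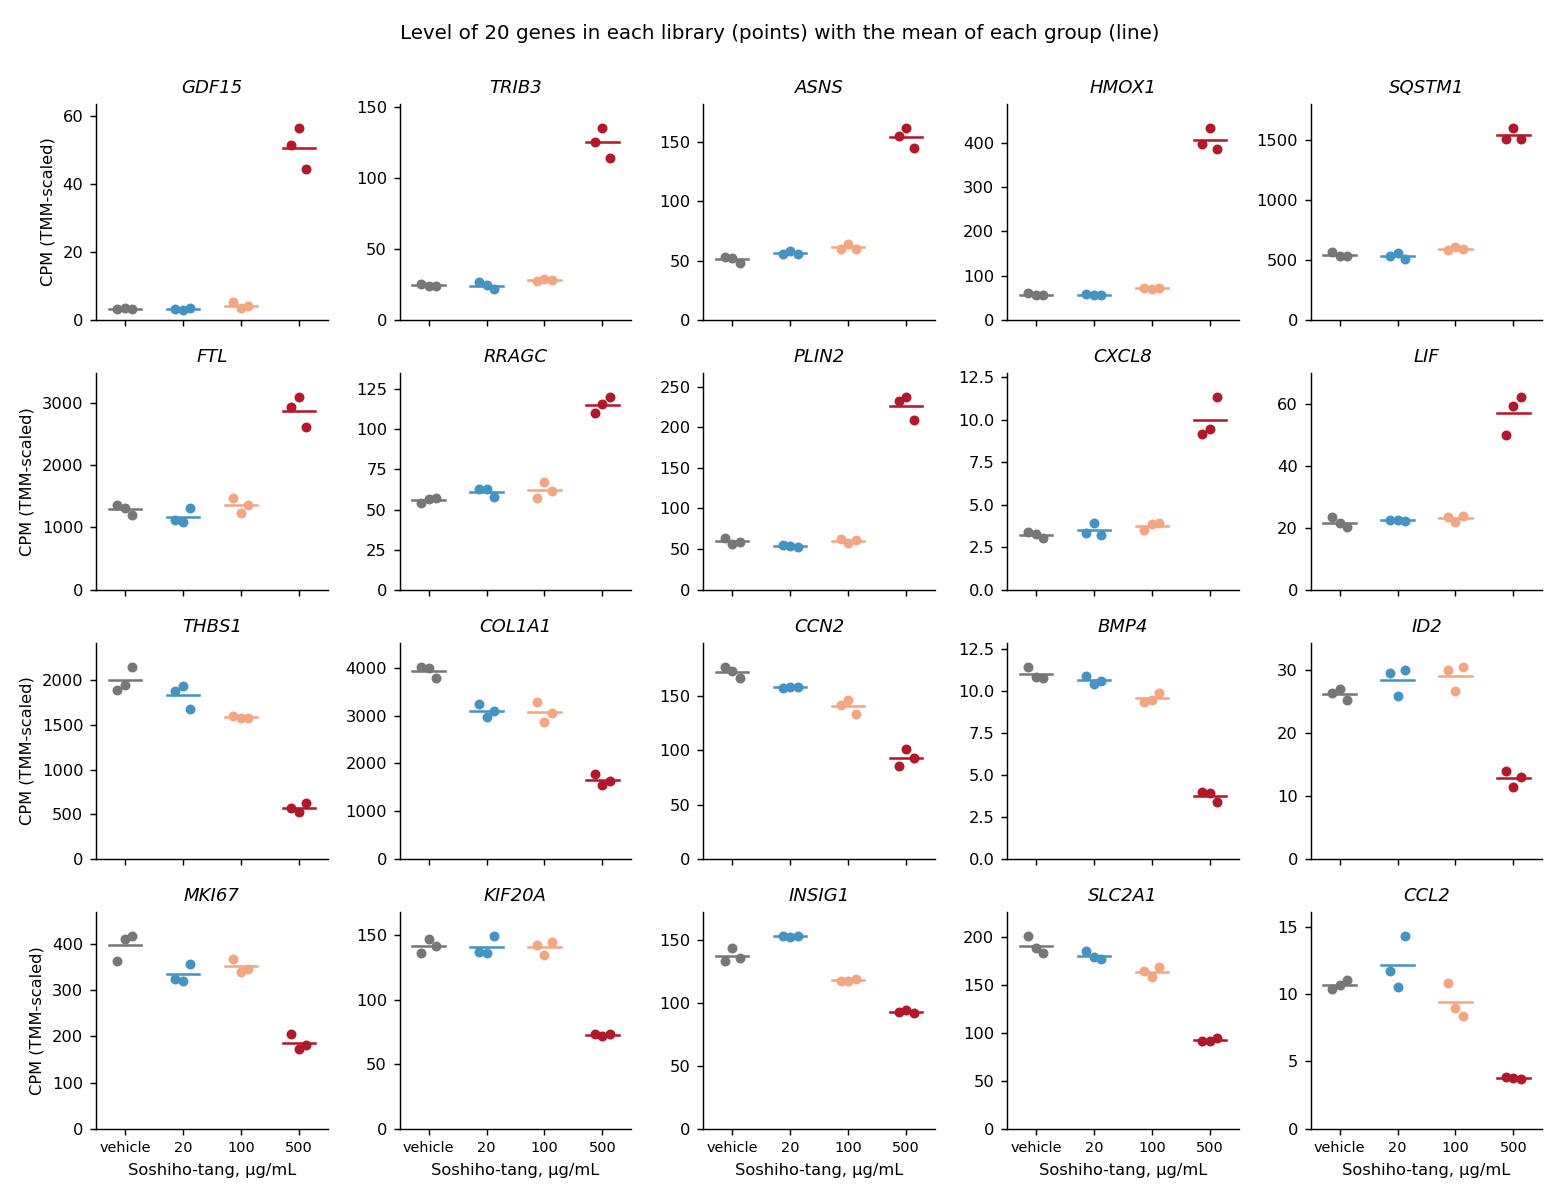
TMM-scaled CPM (vertical axes, each from 0) of 20 genes in vehicle and in Soshiho-tang at 20, 100 and 500 µg/mL (horizontal axis, 3 libraries each; points are libraries and lines are group means). In the upper 10 genes all libraries at 500 µg/mL lie above all other libraries, and in the lower 10 they lie below them; the names of the vehicle libraries carry another prefix.

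Targets of ATF4 formed the group with the largest median rise of those examined. Of 24 listed targets 23 could be tested, and 19 rose and 1 fell, 14 of the rises being at least 2-fold. For the counts of this and the later Soshiho-tang groups, the background over all genes tested was 14.6% higher and 14.2% lower. The median log2 fold change was 1.10 against 0.01 over all genes tested. ATF4 itself stood at 327, 323 and 282 CPM at 500 µg/mL and 151, 130 and 155 CPM at 20 µg/mL (log2 fold change 1.10 ± 0.07, adjusted p = 5.31e-11). DDIT3, the pro-apoptotic partner of C/EBP factors also called CHOP, stood at 79.3, 82.5 and 73.5 CPM at 500 µg/mL and 21.3, 21.5 and 20.9 CPM at 20 µg/mL (log2 fold change 1.88 ± 0.08, adjusted p = 6.91e-14). The chromatin-associated stress factor NUPR1 rose from 9.45 ± 2 to 36.3 ± 2.69 CPM (1.95 ± 0.11), the leucine sensor SESN2 from 22.7 ± 1.54 to 78.3 ± 1.65 CPM (1.78 ± 0.05) and CHAC1, an enzyme that breaks down glutathione, from 5.9 ± 0.748 to 20.7 ± 1.9 CPM (1.82 ± 0.10). The phosphatase subunit PPP1R15A, which reverses eIF2alpha phosphorylation, rose as well (1.23 ± 0.05), as did the transcription factors ATF3 (1.54 ± 0.15) and CEBPG (1.02 ± 0.06). VLDLR, a lipoprotein receptor, was the member that fell (-0.35 ± 0.07), and DDIT4 (log2 fold change 0.24 ± 0.09, adjusted p = 0.0528), STC2 (0.09 ± 0.05) and ATF5 (0.02 ± 0.05) were not called. DDIT4 was called higher under 6 of the alternatives: without replicate 1 of the 500 µg/mL group (adjusted p = 0.0102), without replicate 2 of the 20 µg/mL group (0.0143), without a filter on low counts (0.00187), by DESeq2 on the filtered genes (0.0474) and in both fits with a replicate block (0.0466 and 0.0382). STC2 was called higher without replicate 1 of the 500 µg/mL group (0.0366). Without replicate 3 of the 20 µg/mL group 18 members rose and 1 fell.

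Enzymes and carriers of amino acid supply rose as well. ASNS (7:97852118-97872542), asparagine synthetase, stood at 155, 162 and 145 CPM at 500 µg/mL and 55.9, 57.7 and 55.5 CPM at 20 µg/mL (log2 fold change 1.45 ± 0.05, adjusted p = 2.17e-14). Of 15 tested enzymes of serine and one-carbon metabolism 11 rose and 3 fell (median 0.40), among them the serine pathway enzymes PSAT1 from 71.7 ± 6.67 to 166 ± 6.83 CPM (1.21 ± 0.08) and PHGDH (0.81 ± 0.07) and the cystathionine synthase CBS (1.26 ± 0.08). Thymidylate synthase TYMS (-0.46 ± 0.07), which uses folate for DNA synthesis, was among the 3 that fell. Of 12 tested amino acid transporters 9 rose and 1 fell (median 0.57; 2 fell without replicate 1 of the 20 µg/mL group). SLC7A11, the cystine importer, stood at 305, 302 and 312 CPM at 500 µg/mL and 143, 148 and 124 CPM at 20 µg/mL (log2 fold change 1.15 ± 0.07, adjusted p = 5.53e-11), and its partner chain SLC3A2 rose from 132 ± 10.2 to 252 ± 0.929 CPM (0.94 ± 0.08). SLC38A2, the glutamine carrier SNAT2, fell from 404 ± 34 to 299.6 ± 6.47 CPM (-0.43 ± 0.06). Of 20 cytosolic tRNA synthetases 12 rose and 2 fell (median 0.36; 1 fell without replicate 1 of the 500 µg/mL or replicate 2 of the 20 µg/mL group). The largest rise was that of the alanyl enzyme AARS1 (0.84 ± 0.05).

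Chaperone genes of the response to misfolded protein were mostly not called. Of 18 chaperones and folding enzymes of the endoplasmic reticulum 1 rose, 2 fell and 15 were not called (median -0.03). These counts turned on single libraries: 4 fell without replicate 1 of the 500 µg/mL or replicate 2 of the 20 µg/mL group, none without replicate 3 of the 500 µg/mL or replicate 1 of the 20 µg/mL group, and 1 without either of the other 2 libraries, while 2 rose without replicate 3 of the 20 µg/mL group. DESeq2 on the filtered genes called 5 lower. HSPA5, the chaperone BiP and the standard marker of that response, stood at 3227, 3136 and 2887 CPM at 500 µg/mL and 3357, 3013 and 3162 CPM at 20 µg/mL, and the groups overlapped (log2 fold change -0.04 ± 0.05, adjusted p = 0.586). The member that rose was DNAJB9 (0.54 ± 0.07). Of 16 genes of XBP1 and of degradation from the endoplasmic reticulum 3 rose and 3 fell (background 14.6% and 14.2%). HERPUD1, which is also listed under ATF4, had the largest rise (1.08 ± 0.05). Of 18 cytosolic heat shock genes none rose and 7 fell, among them HSPA8 (-0.28 ± 0.06) and DNAJB4 (-0.45 ± 0.04), and 4 fell without replicate 1 of the 20 µg/mL or replicate 3 of the 500 µg/mL group. Without replicate 2 of the 20 µg/mL group 1 rose.

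To show where the motif of this response stands, promoters were read from RefSeq (GRCh38.p14) for the 250 bases before each start site and searched on both strands for TGATGNAA, the core of the composite element of ATF4 and C/EBP factors. It was present in 1.39% of 11693 windows of genes tested with a promoter entry, in 3.19% of 27305 windows of all promoters, in 6.67% (8 of 120) of genes that rose at least 2-fold and in 0.781% (1 of 128) of genes that fell at least 2-fold. Among the ATF4 targets 5 of 22 windows held it (22.7%). The 3 with the largest fold changes among them, CHAC1, ATF3 and ASNS, are printed from the strand of the gene with the motif or its reverse complement in capitals. The CHAC1 stretch is chr15:40953221-40953319 (+ strand), the ATF3 stretch chr1:212565166-212565273 (+ strand) and the ASNS stretch chr7:97872419-97872526 (- strand).
CHAC1: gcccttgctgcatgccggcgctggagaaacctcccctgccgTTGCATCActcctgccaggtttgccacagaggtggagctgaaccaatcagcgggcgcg
ATF3: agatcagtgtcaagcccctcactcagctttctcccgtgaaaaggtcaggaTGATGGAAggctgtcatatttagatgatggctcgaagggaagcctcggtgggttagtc
ASNS: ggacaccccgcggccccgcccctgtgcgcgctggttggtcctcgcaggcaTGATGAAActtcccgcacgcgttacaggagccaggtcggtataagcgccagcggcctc
The first base of the match lies 209, 191 and 68 bases before the start site, respectively. ASNS and ATF3 read the motif on the strand of the gene and CHAC1 on the other strand. A match is a description of the letters and was not tested for binding.

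Targets of NRF2 rose in most cases. Of 31 listed 30 could be tested, and 22 rose and 1 fell, with a median of 0.48 and 6 members at least 2-fold higher. Their summed level went from 5985 CPM (mean of 3 libraries) at 20 µg/mL to 11220 CPM at 500 µg/mL. A few abundant members weighed most in this sum: FTL went from 1168 to 2874 CPM, FTH1 from 1222 to 2609 CPM and SQSTM1 from 533.7 to 1539 CPM. HMOX1, SQSTM1, FTL, FTH1 and SLC7A11, described above, led the group together with OSGIN1, an oxidative stress regulator of growth (1.35 ± 0.07). The enzymes of glutathione synthesis rose less, with GCLC at 63.8, 63.7 and 59.8 CPM at 500 µg/mL and 36, 37.5 and 37.6 CPM at 20 µg/mL (log2 fold change 0.76 ± 0.04, adjusted p = 2.95e-11) and GCLM (0.53 ± 0.06). Thioredoxin reductase TXNRD1 rose from 329.8 ± 14.9 to 469 ± 19.5 CPM (0.51 ± 0.06) and the quinone reductase NQO1, which is also an AhR target, from 146 ± 3.73 to 225 ± 5.4 CPM (0.62 ± 0.06). The aldo-keto reductases AKR1C1 (0.97 ± 0.07) and AKR1C2 (0.88 ± 0.10) are near-identical, so their separate values are uncertain. Of the enzymes of the pentose phosphate route PGD rose (0.27 ± 0.05), whereas TKT was not called (-0.08 ± 0.05). The drug exporter ABCC1 fell (-0.20 ± 0.05). Of 15 tested genes of heme and iron handling 9 rose and 3 fell (background 14.6% and 14.2%). This list shares HMOX1, FTL and FTH1 with the NRF2 targets, so the counts of the lists are not independent. Without replicate 2 of the 500 µg/mL group none fell, and without replicate 1 of the 20 µg/mL group 1 did. ALAS1, the first enzyme of heme synthesis, rose from 57.1 ± 2.35 to 92.7 ± 0.747 CPM (0.70 ± 0.05). BLVRB, a biliverdin reductase that acts after heme oxygenase, rose from 21.1 ± 1.32 to 34.6 ± 3.98 CPM (0.72 ± 0.11).

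The antioxidant response core TGACNNNGC was present in 12.1% of the windows of genes tested, 11% of all promoters, 14.2% of genes that rose at least 2-fold and 14.8% of genes that fell at least 2-fold. In the NRF2 targets it was present in 5 of 22 windows (22.7%) and in the lysosome list in 7 of 22 (31.8%). Of the NRF2 targets, those of the 3 with the largest fold changes among them, GCLM, TXNRD1 and PGD, are printed with the match in capitals. They are chr1:93909431-93909514 (- strand), chr12:104215630-104215738 (+ strand) and chr1:10398814-10398921 (+ strand).
GCLM: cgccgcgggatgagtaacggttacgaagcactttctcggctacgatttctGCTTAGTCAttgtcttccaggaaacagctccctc
TXNRD1: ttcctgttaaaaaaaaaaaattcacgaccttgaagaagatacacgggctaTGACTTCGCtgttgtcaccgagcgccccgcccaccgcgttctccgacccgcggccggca
PGD: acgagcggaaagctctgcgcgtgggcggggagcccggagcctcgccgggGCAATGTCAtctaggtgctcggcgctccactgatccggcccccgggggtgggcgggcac
The first base of the match lies 34, 99 and 201 bases before the start site, and in GCLM and PGD the motif reads on the other strand.

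Lysosome genes rose as a group of small changes. Of 35 listed targets of TFEB and lysosome genes 26 rose and 1 fell, with a median of 0.32 and 3 members at least 2-fold higher. The summed level went from 5342 to 6682 CPM, 1.25 times. Genes of nutrient sensing on the lysosome were among the larger rises. RRAGD rose from 0.559 ± 0.223 to 1.82 ± 0.119 CPM (1.70 ± 0.26) and RRAGC from 61 ± 3.01 to 115 ± 5.07 CPM (0.92 ± 0.07), and both encode Rag GTPases that recruit mTORC1. FLCN (0.78 ± 0.08) and FNIP1 (0.53 ± 0.06), which form the complex that acts on these GTPases, rose as well. GPNMB, a glycoprotein of lysosome stress, stood at 30.2, 33 and 27.7 CPM at 500 µg/mL and 7.84, 8.76 and 10.9 CPM at 20 µg/mL (log2 fold change 1.73 ± 0.12, adjusted p = 2.48e-10). NPC1, the cholesterol exporter of the lysosome, stood at 410.2, 418 and 409.7 CPM at 500 µg/mL and 219, 226 and 214 CPM at 20 µg/mL (log2 fold change 0.91 ± 0.05, adjusted p = 2.95e-11). The protease CTSD rose from 241 ± 9.85 to 346 ± 11.3 CPM (0.52 ± 0.06), and the calcium channel MCOLN1 rose as well (0.48 ± 0.06). Of the factors themselves, TFEB (-0.20 ± 0.09) and TFE3 (0.01 ± 0.04) were not called and MITF was the member that fell, from 30.2 ± 1.15 to 19.9 ± 1.58 CPM (-0.60 ± 0.06). Of 23 tested autophagy genes 6 rose and 5 fell (background 14.6% and 14.2%). Besides SQSTM1, the autophagosome protein MAP1LC3B rose from 87.6 ± 2.45 to 132 ± 4.68 CPM (0.59 ± 0.05), and the mitophagy receptors BNIP3 from 102 ± 8.85 to 49.9 ± 0.411 CPM (-1.04 ± 0.07) and BNIP3L (-0.62 ± 0.05) fell.

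The motif bound by TFEB, CACGTGAC, was present in 3.92% of windows of genes tested, 2.27% of all promoters, 7.25% (139 of 1918) of genes that rose, 2.45% (45 of 1840) of genes that fell, 10% (12 of 120) of genes that rose at least 2-fold and 0.781% (1 of 128) of those that fell at least 2-fold. In the lysosome list 7 of 22 windows held it (31.8%). Every such match also holds ACGTG, the hypoxia core. RRAGC, FNIP1 and CTSD are printed with the match in capitals; this set was added after the shares had been seen. They are chr1:38859827-38859934, chr5:131797135-131797242 and chr11:1763928-1764024, all on the - strand.
RRAGC: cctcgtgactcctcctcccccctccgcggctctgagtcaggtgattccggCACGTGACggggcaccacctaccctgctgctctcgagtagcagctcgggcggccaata
FNIP1: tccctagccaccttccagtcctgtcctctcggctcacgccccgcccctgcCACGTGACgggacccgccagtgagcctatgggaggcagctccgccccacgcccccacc
CTSD: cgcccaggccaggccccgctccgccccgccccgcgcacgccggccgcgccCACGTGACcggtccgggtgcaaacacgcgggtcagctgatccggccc
The first base of the match lies 112, 175 and 47 bases before the start site.

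**Figure D3:**
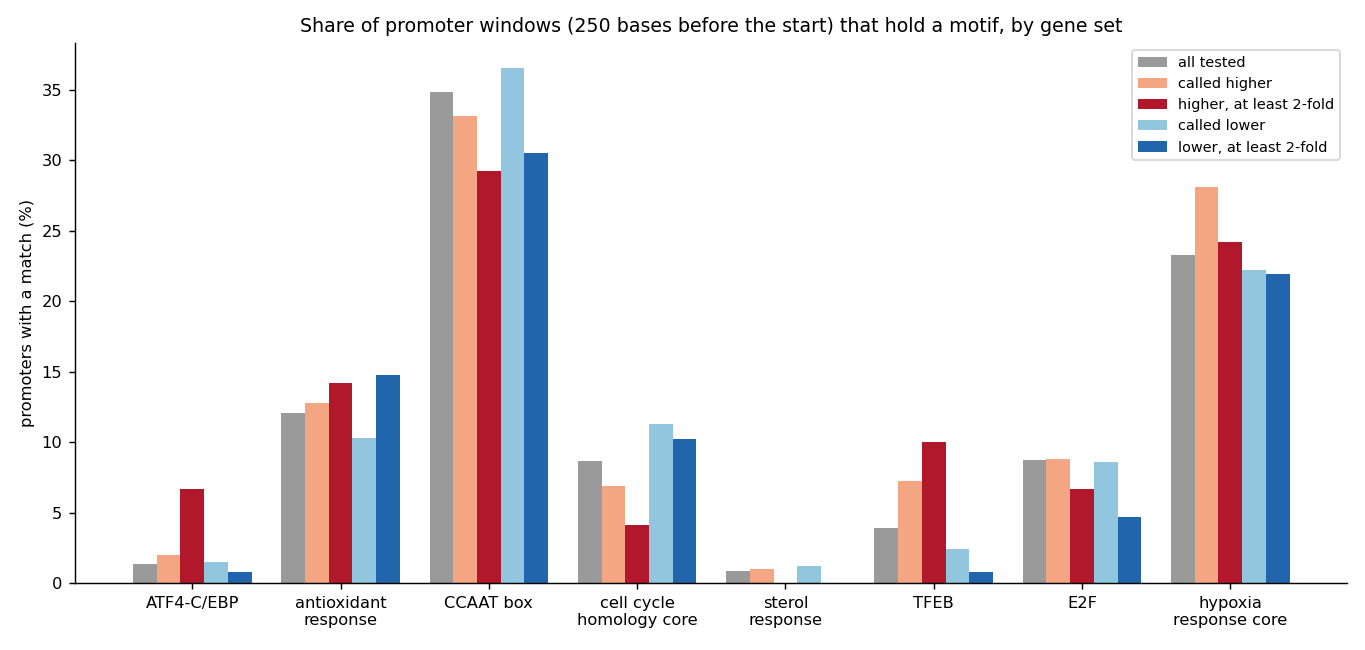
Share of promoter windows (vertical axis, percent, from 0) that hold each of 8 motifs (horizontal axis) among genes tested, genes called higher or lower, and those that changed at least 2-fold. The ATF4 and TFEB motifs are more frequent among genes that rose at least 2-fold (6.67% and 10%) than among all genes tested (1.39% and 3.92%); the shares are a description with no test.

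Genes of p53 and of cell death were mixed. Of 23 tested p53 targets 9 rose and 3 fell (median 0.23, background 14.6% and 14.2%). The largest rise was that of SESN2, which is also listed under ATF4, as is the BH3-only gene BBC3 (from 0.448 ± 0.165 to 0.889 ± 0.0143 CPM, 0.96 ± 0.28); the call of BBC3 was lost without replicate 3 of the 20 µg/mL group (adjusted p = 0.0683). The growth arrest gene GADD45A rose from 58.1 ± 5.19 to 103 ± 6.48 CPM (0.82 ± 0.07) and the death receptor TNFRSF10B from 56.1 ± 4.59 to 96.3 ± 4.72 CPM (0.78 ± 0.06). CDKN1A, the cell cycle inhibitor p21, rose from 14.9 ± 1.15 to 22.6 ± 1.35 CPM (0.59 ± 0.08). MDM2, the standard p53 target, stood at 46.4, 49.1 and 50.6 CPM at 500 µg/mL and 50.6, 47.2 and 47.8 CPM at 20 µg/mL, with overlapping groups (log2 fold change 0.00 ± 0.06, adjusted p = 0.97). Of 18 tested regulators of apoptosis 7 rose and 1 fell, the latter being the decoy receptor TNFRSF10D (-0.90 ± 0.05).

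Matrix genes fell. Of 18 collagen genes 12 fell and none rose (median -0.36, background 14.2% lower). COL1A1 (17:50183289-50201632) stood at 1777, 1550 and 1626 CPM at 500 µg/mL and 3249, 2966 and 3093 CPM at 20 µg/mL (log2 fold change -0.91 ± 0.06, adjusted p = 1.05e-10), and its partner chain COL1A2 (7:94394561-94431232) at 799.7, 758 and 807 CPM at 500 µg/mL and 1776, 1623 and 1478 CPM at 20 µg/mL (log2 fold change -1.04 ± 0.06, adjusted p = 2.43e-11). COL3A1 fell from 29.6 ± 1.95 to 14.5 ± 0.233 CPM (-1.02 ± 0.07) and COL5A1 from 2118 ± 30.0 to 1156 ± 59.7 CPM (-0.87 ± 0.05). The collagen VI genes COL6A1 (-0.04 ± 0.07) and COL6A2 (0.06 ± 0.06) were not called. Of 26 matrix glycoproteins and proteoglycans 21 fell and none rose (median -0.34), among them THBS1, the CCN protein CCN2 from 158 ± 0.749 to 93.1 ± 8.01 CPM (-0.76 ± 0.07), decorin DCN (-0.55 ± 0.10), fibrillin FBN1 (-0.56 ± 0.07) and fibronectin FN1 from 4012 ± 151 to 3128 ± 135 CPM (-0.36 ± 0.09). Of 19 enzymes of collagen processing 13 fell and none rose (median -0.29). The prolyl hydroxylase subunit P4HA1 fell from 212 ± 0.653 to 120 ± 3.06 CPM (-0.82 ± 0.04) and the lysyl hydroxylase PLOD2 from 312 ± 7.71 to 194 ± 6.97 CPM (-0.68 ± 0.05), both also known as hypoxia-induced. The summed level of the collagens went from 11780 to 7917 CPM and that of the glycoproteins from 18190 to 13250 CPM. Of 18 matrix proteases and inhibitors 5 rose and 7 fell, or 4 without replicate 2 of the 20 µg/mL group. MMP1 (0.39 ± 0.07) and MMP14 (0.39 ± 0.04) were higher while MMP2 (-0.33 ± 0.06) was lower.

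Genes of contractility fell in most cases. Of 18 YAP and TEAD targets 15 fell and 1 rose (median -0.31), and of 20 SRF and contractile genes 16 fell and 1 rose (median -0.31). None of the YAP targets rose without replicate 1 or 2 of the 500 µg/mL or replicate 3 of the 20 µg/mL group, and none of the contractile genes when any library but replicate 1 of the 500 µg/mL group was left out. Smooth muscle and pericyte markers, 3 of which are also listed here as contractile or growth factor genes, fell in 4 of 7 tested, and their part in the falls of matrix and contractile genes was not tested. The kinase NUAK2 fell from 13.6 ± 1.18 to 7.14 ± 0.555 CPM (-0.93 ± 0.08), smooth muscle actin ACTA2 from 125 ± 9.32 to 71.5 ± 2.91 CPM (-0.81 ± 0.06) and the calponin CNN1 (-0.70 ± 0.16). The cytoplasmic actins, often used as a reference, fell too: ACTB stood at 7128, 6836 and 6736 CPM at 500 µg/mL and 9028, 8447 and 9361 CPM at 20 µg/mL (log2 fold change -0.37 ± 0.05, adjusted p = 1.12e-05). ACTG1 fell from 3804 ± 130 to 2794 ± 115 CPM (-0.45 ± 0.05). Of 20 genes of TGF-beta and BMP signalling 16 fell and 2 rose (median -0.42). Among the ligands BMP4 (14:53949736-53958761) stood at 4.01, 3.92 and 3.42 CPM at 500 µg/mL and 10.9, 10.4 and 10.6 CPM at 20 µg/mL (log2 fold change -1.49 ± 0.09, adjusted p = 5.31e-11), TGFB3 fell from 15.2 ± 0.84 to 6.98 ± 0.419 CPM (-1.12 ± 0.08) and TGFB2 from 30.2 ± 2.16 to 15.4 ± 0.718 CPM (-0.97 ± 0.10). Their target ID2, an inhibitor of helix-loop-helix factors, stood at 13.9, 11.4 and 13.1 CPM at 500 µg/mL and 29.5, 25.9 and 29.9 CPM at 20 µg/mL (log2 fold change -1.15 ± 0.08, adjusted p = 3.16e-10), and ID1 fell from 259 ± 13.7 to 167 ± 11.2 CPM (-0.63 ± 0.09). The members that rose were the BMP antagonist GREM1 (0.54 ± 0.07) and the activin chain INHBA (0.32 ± 0.05). Of 25 tested growth factors and receptors 12 fell and 4 rose. PDGFRB, the receptor of platelet-derived growth factor, fell from 61.3 ± 4.86 to 35.6 ± 1.02 CPM (-0.79 ± 0.06).

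Mitosis genes fell almost without exception. Of 32 listed 30 fell, none rose, and CDC25C (-0.14 ± 0.09) and UBE2C (-0.12 ± 0.08) were not called (median -0.37). Their summed level went from 4952 to 3603 CPM. KIF20A (5:138178719-138187715), a kinesin of cytokinesis, stood at 73.1, 72.1 and 73.4 CPM at 500 µg/mL and 137, 136 and 149 CPM at 20 µg/mL (log2 fold change -0.95 ± 0.07, adjusted p = 3.03e-10). MKI67 (10:128096659-128126385), the proliferation marker Ki-67, stood at 204, 173 and 182 CPM at 500 µg/mL and 325, 321 and 357 CPM at 20 µg/mL (log2 fold change -0.84 ± 0.13, adjusted p = 4.27e-05). Both were lower in every 500 µg/mL library. The spindle pole protein ASPM fell from 165 ± 0.993 to 104 ± 5.15 CPM (-0.66 ± 0.09), the kinase PLK1 from 144 ± 14.6 to 99.8 ± 5.31 CPM (-0.53 ± 0.08) and the cyclin-dependent kinase CDK1 from 71.9 ± 2.88 to 60.3 ± 3.83 CPM (-0.26 ± 0.06). Fewer DNA replication genes were called: of 32 tested 12 fell and 1 rose (median -0.10). The ribonucleotide reductase subunit RRM2 fell from 223 ± 2.37 to 159 ± 4.09 CPM (-0.48 ± 0.04), whereas the helicase subunit MCM2 was not called (0.02 ± 0.06). Of 20 tested G1 regulators 4 rose and 7 fell. E2F7, a repressor of the E2F family, rose from 106 ± 4.08 to 186 ± 8.33 CPM (0.81 ± 0.06), while the activator E2F2 (-0.78 ± 0.11) and the inhibitor CDKN2C from 114 ± 3.2 to 63.8 ± 3.11 CPM (-0.84 ± 0.06) fell.

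The core of the cell cycle homology region, TTTGAA, was present in 16 of 27 windows of mitosis genes (59.3%), against 8.68% of genes tested, 13.6% of all promoters, 11.3% of genes that fell and 6.93% of genes that rose. CCAAT was present in 77.8% of the mitosis windows, 83.3% (15 of 18) of the cholesterol windows, 50% of those of ATF4 targets, 34.8% of those of genes tested and 33% of all promoters. The E2F core TTTNNCGC was present in 44.8% of windows of replication genes, 8.75% of those of genes tested and 5.93% of all promoters. MKI67, ASPM and PLK1, the members of largest fold change whose window holds TTTGAA, are printed with the match in capitals. They are chr10:128126424-128126520 (- strand), chr1:197146727-197146832 (- strand) and chr16:23678810-23678888 (+ strand).
MKI67: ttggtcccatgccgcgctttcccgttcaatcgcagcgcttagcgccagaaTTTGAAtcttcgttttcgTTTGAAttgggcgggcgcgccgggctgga
ASPM: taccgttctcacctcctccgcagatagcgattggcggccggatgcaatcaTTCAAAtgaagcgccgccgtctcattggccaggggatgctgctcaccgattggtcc
PLK1: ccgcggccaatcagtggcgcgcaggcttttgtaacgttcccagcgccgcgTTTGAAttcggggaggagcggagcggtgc
MKI67 holds the core at 2 places, 47 and 29 bases before the start site, ASPM 113 bases before it on the other strand, and PLK1 29 bases before it.

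Most genes of cholesterol synthesis and uptake fell, while most tested genes of fatty acid oxidation and PPAR signalling were not called. Of 25 genes of cholesterol synthesis and uptake 16 fell and none rose (median -0.34). INSIG1 (7:155297776-155310235), a sterol-regulated protein that retains the SREBP complex in the endoplasmic reticulum, stood at 92.8, 94.2 and 91.9 CPM at 500 µg/mL and 153, 153 and 153 CPM at 20 µg/mL (log2 fold change -0.72 ± 0.04, adjusted p = 1.00e-11), and the groups did not overlap. The sterol response motif TCACNCCAC was present in 1 of 18 cholesterol windows (5.56%), 0.855% of those of genes tested and 0.875% of all promoters. Of 16 genes of fatty acid synthesis 10 fell and 1 rose (2 without replicate 2 of the 20 µg/mL group), with the desaturase SCD falling from 281 ± 10.3 to 187 ± 3.74 CPM (-0.58 ± 0.05). In INSIG1 and SCD the mean at 100 µg/mL already lay below that at 20 µg/mL, at 118 and 241 CPM. The cholesterol exporter ABCA1 rose from 61.1 ± 2.03 to 98.2 ± 0.93 CPM (0.68 ± 0.08). Of 12 tested genes of fatty acid oxidation and PPAR signalling 4 rose and none fell. These were PLIN2, the lipase inhibitor ANGPTL4 at 40.6, 41.4 and 41.3 CPM at 500 µg/mL and 11, 10.6 and 10.6 CPM at 20 µg/mL (log2 fold change 1.94 ± 0.11, adjusted p = 1.73e-11), the carnitine transferase CPT1A from 40.6 ± 4.42 to 66.3 ± 5.61 CPM (0.70 ± 0.07) and the kinase PDK4 (0.85 ± 0.28). The call of PDK4 was lost when replicate 1 or 2 of either group was left out (adjusted p from 0.0576 to 0.154).

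Hypoxia genes moved in both directions, and most genes of glucose use fell. Of 20 hypoxia response genes 10 fell and 5 rose (median -0.16). EGLN3, carbonic anhydrase CA9 from 28.1 ± 1.58 to 14.7 ± 0.314 CPM (-0.93 ± 0.08) and BNIP3 fell, whereas ANGPTL4 and the growth factor VEGFA from 242 ± 5.17 to 323 ± 15 CPM (0.42 ± 0.05) rose. The hypoxia core ACGTG was present in 58.8% of hypoxia windows, 54.5% of lysosome windows, 23.3% of those of genes tested and 18.7% of all promoters. It was present in 28.1% of windows of genes that rose and 22.2% of those of genes that fell. Of 22 genes of glucose transport and glycolysis 14 fell and 4 rose (median -0.22). SLC2A1 (1:42925375-42959176), the glucose transporter GLUT1, stood at 91.2, 91.5 and 94.5 CPM at 500 µg/mL and 186, 179 and 177 CPM at 20 µg/mL (log2 fold change -0.96 ± 0.05, adjusted p = 5.90e-12), and the transporter SLC2A3 rose from 34.6 ± 1.71 to 54 ± 1.12 CPM (0.64 ± 0.06). LDHA stood at 1120, 1088 and 1166 CPM at 500 µg/mL and 1804, 1832 and 1930 CPM at 20 µg/mL (log2 fold change -0.72 ± 0.05, adjusted p = 1.34e-10). GAPDH, often used as a reference gene, fell from 3796 ± 284 to 2970 ± 117 CPM (-0.35 ± 0.07).

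Chemokines moved in both directions. Of 11 tested 5 rose and 3 fell. CXCL8, the neutrophil chemokine interleukin 8, stood at 9.18, 9.43 and 11.3 CPM at 500 µg/mL and 3.36, 3.93 and 3.23 CPM at 20 µg/mL (log2 fold change 1.50 ± 0.13, adjusted p = 9.73e-09). CXCL2 (1.68 ± 0.27), CXCL3 (1.55 ± 0.35) and CXCL5 (1.33 ± 0.27) rose to between 0.662 and 2.29 CPM in the 500 µg/mL libraries. CCL2 stood at 3.81, 3.75 and 3.68 CPM at 500 µg/mL and 11.8, 10.6 and 14.3 CPM at 20 µg/mL (log2 fold change -1.70 ± 0.14, adjusted p = 7.17e-09), and CXCL12, a chemokine that retains stem and immune cells, fell from 12 ± 0.664 to 5.68 ± 0.355 CPM (-1.08 ± 0.08). Of 23 tested cytokines and NF-kappaB targets 14 rose and 2 fell (median 0.48; 11 and 2 without replicate 3 of the 20 µg/mL group). LIF, a cytokine of the interleukin 6 family, stood at 50.01, 59.1 and 62.1 CPM at 500 µg/mL and 22.4, 22.6 and 22.2 CPM at 20 µg/mL (log2 fold change 1.35 ± 0.08, adjusted p = 4.27e-11). The adhesion protein ICAM1 rose from 45.6 ± 2.74 to 90.4 ± 3.36 CPM (0.99 ± 0.06), while interleukin 11, IL11 (-0.52 ± 0.09), and the prostaglandin synthase PTGS2 from 81.5 ± 3.42 to 51.3 ± 3.64 CPM (-0.67 ± 0.05) fell. The inhibitor NFKBIA was not called (-0.03 ± 0.07). Of 25 interferon-stimulated genes 9 rose and none fell (median 0.16), with IFIT2 (0.84 ± 0.16) and MX1 (0.61 ± 0.12) among those that rose and IFIT1 (-0.12 ± 0.13) not called. Of 21 immediate early genes 9 rose and 2 fell (background 14.6% and 14.2%), and 1 fell without replicate 1 or 3 of either group. JUN rose from 114 ± 2.46 to 183 ± 3.5 CPM (0.69 ± 0.05) and KLF4 from 5.73 ± 0.617 to 11.9 ± 0.904 CPM (1.05 ± 0.11), whereas FOS was not called (-0.22 ± 0.15). Of 18 ERK feedback genes 10 rose and 2 fell, with the phosphatases DUSP5 from 11.7 ± 0.585 to 26.9 ± 1.84 CPM (1.21 ± 0.08) and DUSP6 from 20.7 ± 1.56 to 36.5 ± 0.892 CPM (0.82 ± 0.07) among the rises and the ephrin receptors EPHA2 (-0.82 ± 0.04) and EPHA4 (-1.01 ± 0.09) the falls.

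Of 106 listed transcriptional regulators 104 could be tested, and 33 rose and 35 fell (background 14.6% and 14.2%). Those with the largest changes not yet described were SNAI1, a regulator of epithelial-mesenchymal transition, which fell from 24.2 ± 4.21 to 11.8 ± 0.284 CPM (-1.03 ± 0.14), the oxysterol receptor NR1H3 (0.94 ± 0.18), CEBPB from 42.7 ± 1.73 to 80.7 ± 19.3 CPM (0.92 ± 0.13), FOSB (0.89 ± 0.14) and the MYC antagonist MXD1 (0.82 ± 0.10). KLF15, a metabolic factor, was called higher, from 0.185 ± 0.0364 to 0.421 ± 0.108 CPM (log2 fold change 1.18 ± 0.44, adjusted p = 0.0476), and the call was lost when any library but replicate 2 of the 500 µg/mL group was left out (adjusted p from 0.0724 to 0.171). Of 7 tested targets of the aryl hydrocarbon receptor 2 rose and 3 fell. CYP1B1, one of these targets, stood at 53, 52.6 and 58.1 CPM at 500 µg/mL and 91.5, 90.01 and 90.1 CPM at 20 µg/mL (log2 fold change -0.73 ± 0.05, adjusted p = 1.01e-09). The repressor of the receptor, AHRR, fell from 29.1 ± 0.493 to 19.3 ± 1.09 CPM (-0.59 ± 0.07). CYP1A1 was not called (-0.64 ± 0.31), except lower without replicate 1 of the 500 µg/mL group (adjusted p = 0.0443). Activity of the receptor was not tested.

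Genes of basic cell functions were mostly not called. Of 37 cytosolic ribosomal protein genes none was called, with a median of 0.03 and a summed level of 19380 CPM at 500 µg/mL. Of 32 nuclear genes of the respiratory chain 1 rose and 1 fell, and of 28 proteasome subunits 2 rose and none fell. With one library left out 0 or 1 of the respiratory genes rose and 0 to 2 fell (2 without replicate 3 of the 20 µg/mL group), and 0 or 1 of the proteasome genes rose. Of 13 mitochondrially encoded transcripts none was called in either direction (median -0.06). Their summed level was 62110, 56430 and 51850 CPM at 500 µg/mL and 54110, 47560 and 74720 CPM at 20 µg/mL, the highest value being that of replicate 3, and the median without that library was 0.16. The plot of gene groups sets these beside the groups that moved.

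**Figure D4:**
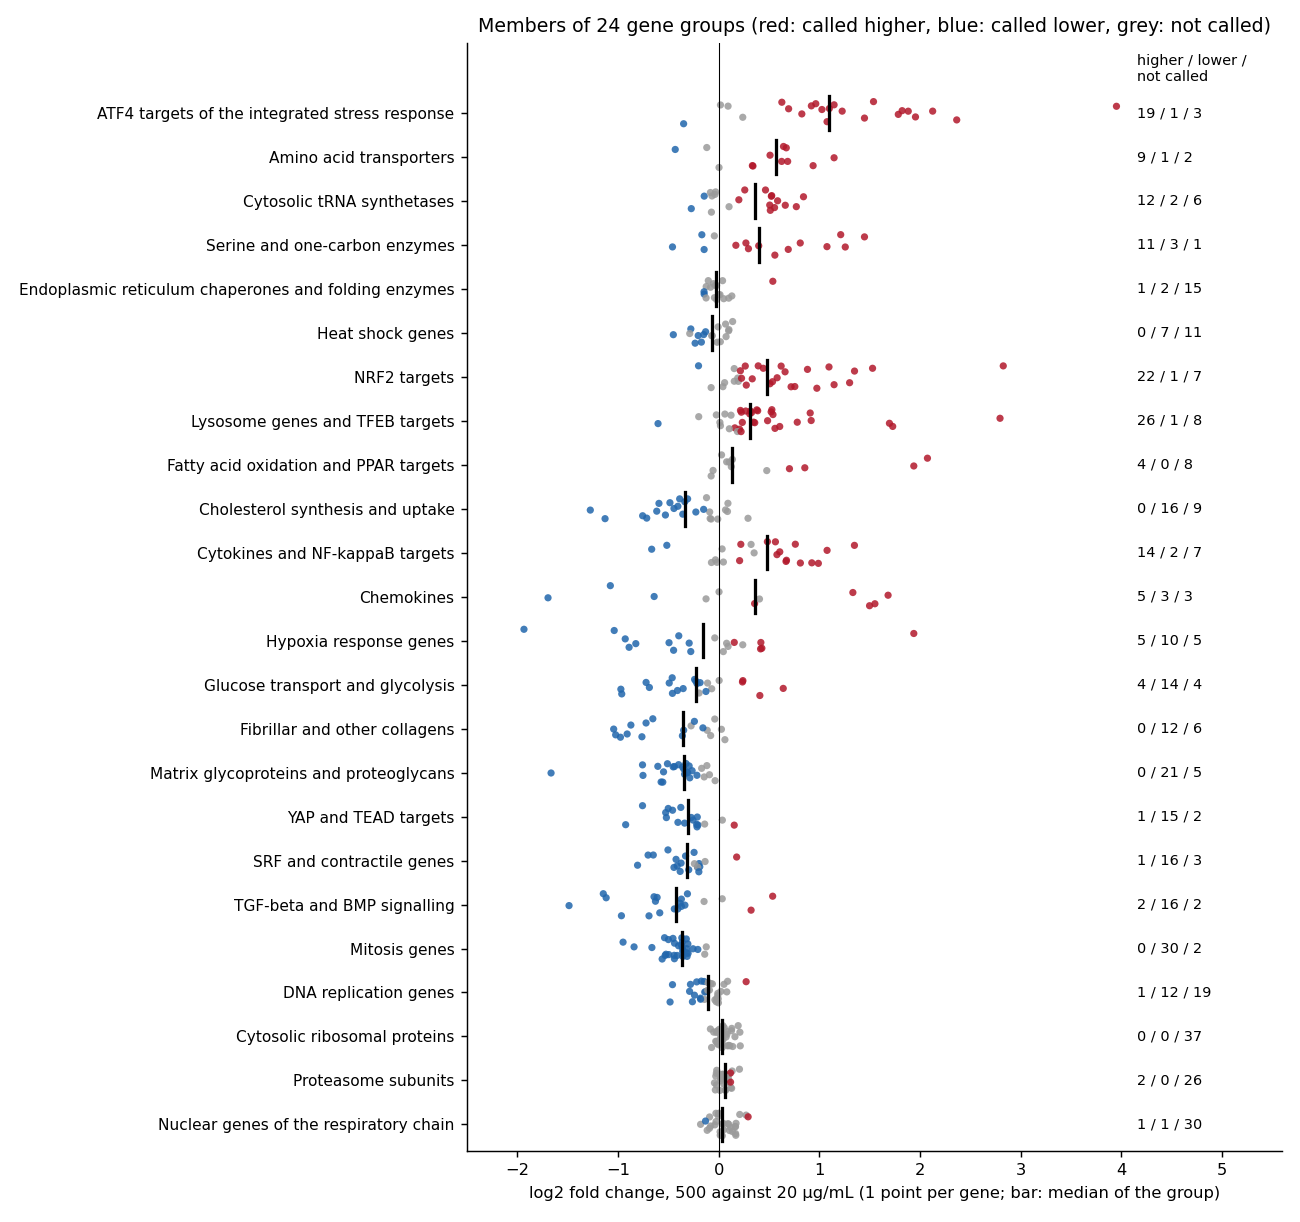
Log2 fold change of 500 against 20 µg/mL (horizontal axis) of each tested member of 24 gene groups (1 row per group, 1 point per gene, vertical scatter within a row only for legibility). Red points were called higher, blue lower and grey not called, black bars are group medians and the figures at the right count members higher, lower and not called; ribosomal protein genes cluster at 0 while ATF4 targets reach 3.95 and mitosis genes lie left of 0.

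Smooth muscle and pericyte markers fell in part, and markers of most other cell types were too low to test or moved in both directions. Of 8 smooth muscle and pericyte markers 7 were tested, 4 fell and none rose (median -0.30). Those that fell were ACTA2, CNN1 and PDGFRB, described above, and the adhesion protein MCAM, from 24 ± 0.98 to 19.5 ± 1.14 CPM (-0.30 ± 0.06). The summed level of the 8 was 280.8 to 290.2 CPM at 500 µg/mL and 378.8 to 398.7 CPM at 20 µg/mL, a ratio of 0.736. DES was too low to test. Of 11 neuronal markers 5 were tested. MAP2, a microtubule protein of dendrites, rose from 7.72 ± 0.425 to 10.7 ± 0.56 CPM (0.47 ± 0.09), and the vesicle fusion protein SNAP25 from 26.4 ± 1.79 to 15.7 ± 0.116 CPM (-0.74 ± 0.05) and the tubulin TUBB3 from 81.3 ± 2.23 to 62.7 ± 3.03 CPM (-0.38 ± 0.07) fell; a further member fell without replicate 2 of the 500 µg/mL group. Among the 6 too low to test were RBFOX3 and DCX. Of 9 leukocyte markers 4 could be tested. PTPRC, which encodes the leukocyte antigen CD45, stood at 4.75, 4.16 and 4.56 CPM at 500 µg/mL and 12.9, 12.3 and 12.2 CPM at 20 µg/mL (log2 fold change -1.47 ± 0.08, adjusted p = 4.54e-12). CD68, a lysosomal protein, stood at 224, 213 and 193 CPM at 500 µg/mL and 122, 128 and 179 CPM at 20 µg/mL (log2 fold change 0.56 ± 0.14, adjusted p = 0.00443), with replicate 3 of the 20 µg/mL group nearest to the 500 µg/mL libraries. The other 5, among them CD3E, AIF1, ITGAM and LYZ, were too low to test, at most 0.438 CPM in any library of the fit. Of 5 tested epithelial markers 1 rose and 2 fell, among them KRT18, a filament of simple epithelia, at 51, 48.9 and 52.5 CPM at 500 µg/mL and 147, 135 and 142 CPM at 20 µg/mL (log2 fold change -1.47 ± 0.06, adjusted p = 9.11e-14), and its partner KRT8 from 16.3 ± 1.48 to 10.2 ± 0.88 CPM (-0.67 ± 0.09). None of 3 endothelial and 2 oligodendrocyte markers tested was called. Whether a change in the mix of cells has a part in any result was not tested.

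The contrast differed from that of the other extract in the same set. The difference between the 500 against 20 µg/mL contrasts of Soshiho-tang and Yijin-tang, which share no libraries, passed the test in 2298 of 16872 genes (13.6%), 1118 higher (6.63%) and 1180 lower (6.99%) with Soshiho-tang. Among 284 genes that changed at least 2-fold with Soshiho-tang and reached 1 CPM, the difference passed in 116 of 139 that rose and 106 of 145 that fell. In 124 of the 139 and 108 of the 145 the fold change with Yijin-tang was within 0.5 on the log2 scale. These genes were chosen by their change in Soshiho-tang libraries that also enter the difference, so the counts are a description. The share of all genes tested within 0.5 with Yijin-tang was not counted. With Yijin-tang only 2.7% of all genes tested were called higher and 2.94% lower. The 124 and 108 therefore cannot show anything particular to the genes chosen. GDF15 had a fold change of -0.08 ± 0.15 with Yijin-tang (difference 4.04 ± 0.20, adjusted p = 8.83e-12), HMOX1 of 0.39 ± 0.06 (difference 2.44 ± 0.08, adjusted p = 5.87e-15) and THBS1 of -0.26 ± 0.07 (difference -1.41 ± 0.10, adjusted p = 1.23e-09). Among the ATF4 targets the difference was higher with Soshiho-tang in 19 of 23, among NRF2 targets in 18 of 30 and among lysosome genes in 26 of 35. Among mitosis genes it was lower with Soshiho-tang in 30 of 32, and with Yijin-tang itself 9 of the 32 rose and none fell (background 2.7% higher and 2.94% lower of genes tested). Cholesterol genes moved with both extracts: with Yijin-tang 14 of 25 fell (background 2.94%), and the difference was lower with Soshiho-tang in 3 and higher in 1. INSIG1 fell with both extracts (-0.72 ± 0.04 and -0.78 ± 0.04), and the difference did not pass (0.06 ± 0.06, adjusted p = 0.574). CXCL5 rose with both (1.33 ± 0.27 and 1.54 ± 0.30), and IL6 as well (0.67 ± 0.15 and 0.99 ± 0.15), with differences that did not pass (-0.21 ± 0.41, adjusted p = 0.817 and -0.32 ± 0.22, adjusted p = 0.402). TXNIP, an alpha-arrestin that limits glucose uptake, rose less with Soshiho-tang (0.60 ± 0.08) than with Yijin-tang (2.42 ± 0.08; difference -1.82 ± 0.12, adjusted p = 5.96e-10).

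**Figure D5:**
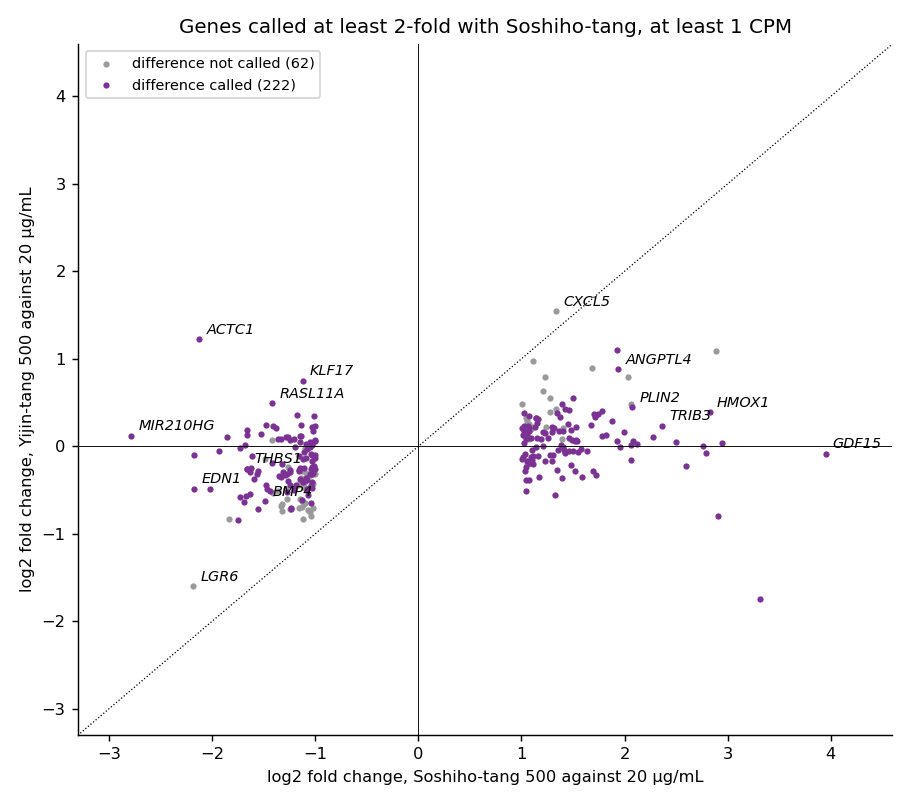
Log2 fold change of 500 against 20 µg/mL with Soshiho-tang (horizontal axis) and with Yijin-tang (vertical axis) for the 284 genes that changed at least 2-fold with Soshiho-tang and reached 1 CPM; the empty middle follows from that choice. Purple points passed the test of the difference (222), grey points did not (62), and the dotted line marks equal change. Most points lie near 0 on the vertical axis, and the share of all genes tested that do so was not counted.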

How the data were processed

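The authors deposited RSEM expected counts per gene for SW1783 cells, and per the submitters' processing notes FastQC 0.11.9, Trim Galore 0.6.5, STAR 2.7.3a and RSEM 1.3.3 were used with hg38. The annotation release and the strand setting are not given in the sources used here. Of 60675 gene entries 57055 matched GENCODE release 29, which gave symbols and coordinates. The expected counts were rounded to whole numbers, and edgeR 4.0.16 (R 4.3.3, limma 3.58.1) fitted the 21 libraries of vehicle, Soshiho-tang and Yijin-tang with TMM scaling and filterByExpr (minimum count 10, minimum total 15), followed by the quasi-likelihood test and Benjamini-Hochberg adjustment. Totals of all libraries ran from 23.9 M to 33.1 M. The script was tested on simulated data. DESeq2 1.42.0, other filters, fewer groups, a replicate block and leaving out libraries were alternatives. Named genes were the 15 highest and 15 lowest called fold changes without overlap and with at least 1 CPM, the 8 highest and 8 lowest above 500 CPM, the 10 highest and 10 lowest differences between extracts, 5 noncoding genes per direction, 15 regulators, and members of 59 gene lists. No gene met a further rule, at 0.1 CPM or less in all libraries of one group and at least 1 CPM in all of the other. The comparison, the lists and the regulators were chosen with earlier results of these data known. Promoter sequences are RefSeq's (GRCh38.p14). Some genes are not reported here.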

Additional observations from a re-analysis of the deposited data

Results flagged for a closer look

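The contrast of 500 against 20 µg/mL differed between Soshiho-tang and Yijin-tang in 2298 genes by the interaction test of the fit (edgeR's quasi-likelihood test, Benjamini-Hochberg adjusted p under 0.05). The 10 highest and 10 lowest differences among genes that reached 1 CPM in one of the 4 groups are given here, as the log2 fold change with Soshiho-tang minus that with Yijin-tang and its SE. No explanation was weighed for any of them.

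On the higher side, PHLDA1-AS1 had a difference of 5.05 ± 1.57, adjusted p = 0.0372, and reads of PHLDA1 on the other strand may be part of its counts. GDF15 had a difference of 4.04 ± 0.20, adjusted p = 8.83e-12. The keratin gene KRT75 had a difference of 3.71 ± 0.53, adjusted p = 3.52e-05, and KCP of 2.91 ± 0.49, adjusted p = 0.000224. SULT1A4, a sulfotransferase gene with a near-identical copy, had a difference of 3.13 ± 0.97, adjusted p = 0.0355, with a fold change of -3.68 ± 0.48 with Yijin-tang and of -0.56 ± 0.72, not called, with Soshiho-tang. ATP6V0D2 had a difference of 2.87 ± 0.53, adjusted p = 0.000545, the pseudogene RPLP0P2 of 2.82 ± 0.37, adjusted p = 1.04e-05 and TM4SF19 of 2.76 ± 0.22, adjusted p = 1.14e-08. THBD had a difference of 2.45 ± 0.14, adjusted p = 7.30e-11 and HMOX1 of 2.44 ± 0.08, adjusted p = 5.87e-15.

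On the lower side, the noncoding FER1L4 had a difference of -1.79 ± 0.22, adjusted p = 3.68e-06 (Soshiho-tang -1.66 ± 0.17, Yijin-tang 0.13 ± 0.14). TXNIP rose with both extracts, and its difference was -1.82 ± 0.12, adjusted p = 5.96e-10. MYOCD, a cofactor of SRF, had a difference of -1.85 ± 0.32, adjusted p = 0.000254 (Soshiho-tang -1.66 ± 0.25, Yijin-tang 0.19 ± 0.20). KLF17 had a difference of -1.87 ± 0.23, adjusted p = 3.90e-06, EGLN3 of -1.88 ± 0.20, adjusted p = 8.05e-07 and RASL11A of -1.91 ± 0.11, adjusted p = 1.35e-10. The phosphatase gene DUSP2 had a difference of -1.94 ± 0.42, adjusted p = 0.00273 (Soshiho-tang -1.43 ± 0.33, Yijin-tang 0.51 ± 0.26). GPR183 had a difference of -2.07 ± 0.40, adjusted p = 0.000827 and MIR210HG of -2.90 ± 0.22, adjusted p = 6.29e-09. ACTC1 had the lowest difference of these genes, -3.35 ± 0.31, adjusted p = 1.27e-07, being lower at 500 µg/mL with Soshiho-tang (-2.13 ± 0.26) and higher with Yijin-tang (1.22 ± 0.18).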

How the results depend on the processing

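The main count of 4868 changed genes ranged from 3814 to 4286 when one library was left out (3814 without replicate 2 of the 500 µg/mL group, 4286 without replicate 3 of the 20 µg/mL group), that of 433 genes changed at least 2-fold from 386 to 450 (up to 576 without the filter on low counts), and that of 2298 differences between extracts from 1845 to 2213. The filter then tests slightly more genes. All these counts stayed within 1.5 times the main ones. Same-numbered libraries of the compared groups deviated with correlations of -0.046, -0.071 and -0.438, and differently numbered ones with -0.373 to 0.44. These few values, taken around means of 3 libraries, cannot show whether same-numbered libraries were handled together. With the replicate block 4874 genes were called in the 21-library fit and 3822 with only the compared groups, 425 and 375 at least 2-fold, and 2306 and 1891 differences between extracts. Shortening the promoter window to 100 bases moved TGATGNAA from 6.67% to 1.67% of genes that rose at least 2-fold (genes tested from 1.39% to 0.479%), TTTGAA from 11.3% to 3.7% of genes that fell (genes tested from 8.68% to 2.45%) and CACGTGAC from 10% to 8.33% of genes that rose at least 2-fold (genes tested from 3.92% to 2.66%). Of 189 named and called genes 185 were called under each of the 14 alternatives that tested them, and none reversed. BBC3, KLF15, PDK4 and PHLDA1-AS1 were the exceptions and lost the call under at least 1 of them. Of the named genes not called, CYP1A1, DDIT4 and STC2 were called under at least 1. Fold changes of genes below 1 CPM rest on few reads and have large SEs.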
